A study of Mus musculus with 6 samples.

Results

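The genes that build glycosaminoglycan chains were examined in macrophages of Lewis lung carcinoma (LLC) tumors, the carcinoma being a transplantable mouse cell line grown under the skin. A list of 42 genes was chosen by function, with earlier results of these data known. All 42 were found by symbol among the 22377 genes of the count table. Of them, 37 passed the filter on low counts and were tested, and 5 did not (Hs6st2, Sulf1, Chsy3, Has2 and Has3). The RNA sequencing data comprised 6 libraries in 2 groups of 3. In the study, both groups were 6- to 8-week-old male and female mice that received LLC cells, and tumors were collected 2 weeks later. The wt group corresponds to Npm1+/+ mice, and the group labelled ko and knockdown to Npm1+/- mice, which carry 1 functional copy of Npm1 in all host cells and not in macrophages alone; the injected carcinoma cells do not carry the host's genotype. The methods describe a sort of tumor cells for the leukocyte and macrophage surface markers Ptprc (CD45), Itgam (CD11b) and Adgre1, whereas the sample labels name tumor tissue as the material, and this difference was not resolved here. The labels do not say which libraries come from separate animals, and the legend of a heatmap in the study speaks of 2 mice where 3 libraries a group were analysed here, so p-values measure the spread between these libraries.

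Glycosaminoglycans are long sugar chains carried on the core proteins of the cell surface and matrix. Heparan sulfate and chondroitin sulfate chains start on a short linker of sugars attached to serine, are lengthened by polymerases that add alternating sugars, and are then sulfated at chosen positions, which decides which growth factors and chemokines they bind. Hyaluronan is made at the plasma membrane without a core protein and without sulfate. In macrophages these chains hold chemokines and lipoproteins at the surface, and serglycin, a chondroitin sulfate proteoglycan, is packed into their granules.

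Total counts were 36550775 to 38147320 per library, and the limit that a count of 0 allows, 3 counts, stood at 0.0716 to 0.0845 CPM (counts adjusted to equal library size), covering counting error only. Npm1 itself was not lower in the libraries labelled knockdown. It measured 142, 380.2 and 381 CPM in wt replicates 1, 2 and 3 and 441, 499 and 343 CPM in knockdown replicates 1, 2 and 3 (log2 fold change 0.51, SE 0.36; adjusted p = 0.436, edgeR quasi-likelihood test, adjusted by Benjamini-Hochberg). Without wt replicate 1, its lowest library, the log2 fold change was 0.16. Because this goes against the label, the group is called "labelled knockdown" throughout. The library wt replicate 1 stood apart, at -108 on a first principal component that held 68.0% of the variance, with the other 5 between -4.54 and 52.0. It was the lowest or the highest of the 6 libraries for 66.5% of all genes tested, and for 25 of the 37 members (67.6%). Macrophage markers were detected in every library. The 10 macrophage genes summed to 20788, 16343 and 14923 CPM in wt and to 11488, 8797 and 14970 CPM in the libraries labelled knockdown. Most of this sum was Lyz2, at 5667 to 14144 CPM, while Mertk stood at 5.13 to 9.52 CPM. All 10 macrophage genes had estimates below 0, with a median log2 fold change of -0.54. Of them, 6 (60.0%) had an unadjusted p under 0.05 by edgeR, against 8.31% of all genes in that direction. Fibroblast and carcinoma transcripts were present as well and are given further below. So were neutrophil transcripts, with 6 genes that summed to 1730, 1694 and 1894 CPM in wt and to 1478, 730 and 1414 CPM in the libraries labelled knockdown. All 6 neutrophil genes had estimates below 0. In sorted or bulk material, fewer cells of a type and less RNA per cell cannot be told apart.

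Transcripts for every step of both sulfated chains were present in these libraries, at levels that spanned several orders of magnitude. Which cells they came from was not tested. Levels between genes are compared per length, as the FPKM that the authors deposited (reads scaled by gene length and library total), given as the mean and SD over the 6 libraries. Hs6st1, which adds sulfate to heparan sulfate at the 6-O position, was the most abundant member at 34.4 ± 3.35 FPKM, and the gap to the next gene was larger than the spread of either. Ugdh, which makes the glucuronic acid donor, followed at 25.0 ± 3.90 FPKM, and Sulf2, an extracellular enzyme that removes 6-O sulfate again, at 24.7 ± 5.47 FPKM. These 2 did not differ beyond their spread. The next places were held by Chst12 at 20.2 ± 4.11, Ext1 at 18.5 ± 2.74, Csgalnact2 at 18.0 ± 1.83, B3gat3 at 16.4 ± 1.48 and Xylt1 at 16.3 ± 4.77 FPKM, and no neighbours in this stretch were separated by more than their SD. Each role in the pathway except hyaluronan synthesis thus had a member at 16.4 FPKM or above.

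Several paralogs were nearly silent. Has2 and Has3, which make hyaluronan, had at most 1 and 7 counts in any library, and Has1, the only hyaluronan synthase tested, averaged 0.963 FPKM and ranged from 0.301 to 2.17 FPKM. Of the extracellular sulfatases, Sulf1 had 3 counts in knockdown replicate 1 and 0 in the other 5 libraries, so the Sulf signal came from Sulf2. Hs6st2 had at most 1 count and Chsy3 at most 3 counts in any library, while their paralogs Hs6st1 and Chsy1 were expressed at 34.4 and 8.90 FPKM. Among the N-deacetylase/N-sulfotransferases, Ndst2 (10.3 FPKM) and Ndst1 (5.91 FPKM) were expressed, and Ndst3 averaged 0.0999 FPKM.

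**Figure D1:**
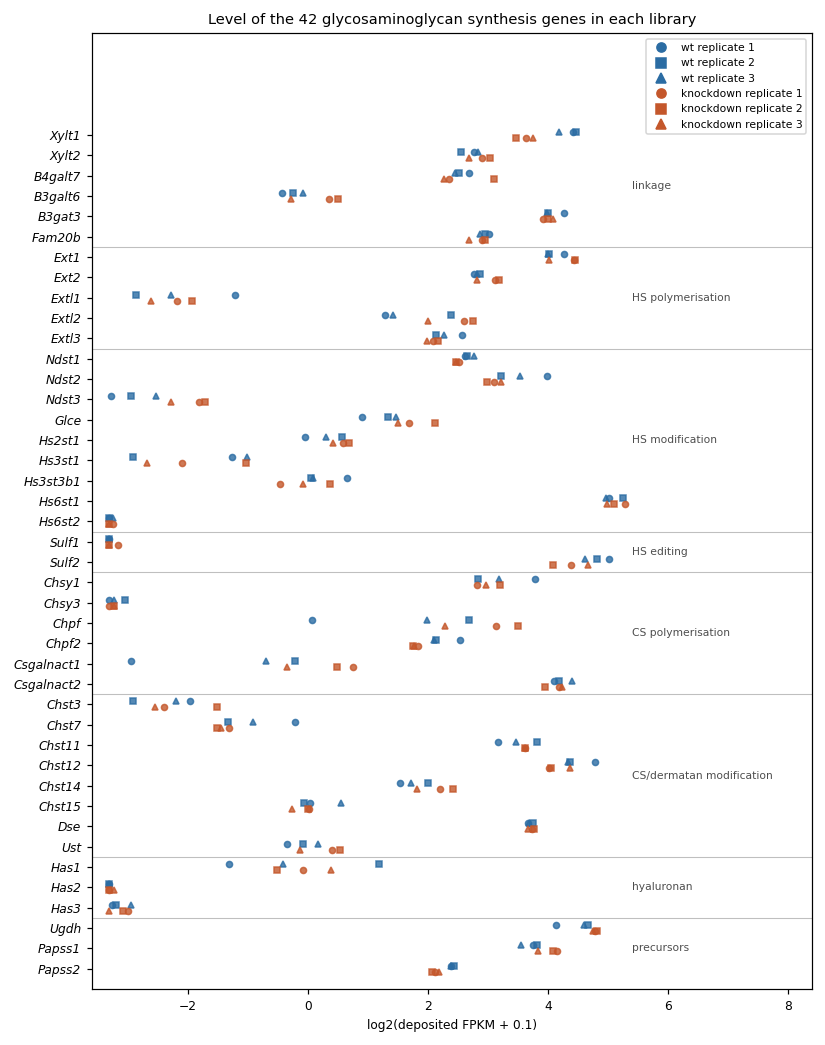
Level of each of the 42 genes in each of the 6 libraries, as log2 of the deposited FPKM plus 0.1 on the horizontal axis, with genes ordered by role from linkage (top) to precursors (bottom). Blue symbols are wt and orange symbols are labelled knockdown, with a symbol shape for each replicate number; Hs6st1 stands highest, and Hs6st2, Sulf1, Chsy3, Has2 and Has3 sit near the lower limit.

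The comparison between the groups asked how the genes of chain synthesis were expressed with the Npm1 label. At an adjusted p of 0.05, the edgeR quasi-likelihood test, adjusted by Benjamini-Hochberg, called 0 of the 37 members and 0 of the 13884 genes tested (0.0%), against 2112 genes with an unadjusted p under 0.05, and the adjusted p of the members lay between 0.328 and 0.99. DESeq2 on the same libraries called 1 member, Xylt1, lower, where it called 0.263% of all genes and 0.168% in that direction. DESeq2 without wt replicate 1 and knockdown replicate 3 called 5 members, all lower (Xylt1, Ndst2, Sulf2, Chpf2 and Chst12), where it called 10.1% of all genes and 5.91% lower. Unadjusted p was under 0.05 in the direction of lower expression for 8 members (21.6% of those tested), where the share over all genes was 8.31%. In the direction of higher expression it was under 0.05 for 1 member (2.7%), where the share over all genes was 6.9%. The 8 were Xylt1, Extl3, Ndst1, Ndst2, Sulf2, Chpf2, Chst12 and Papss2, and the 1 was Ndst3; all 9 had the same adjusted p, 0.328. Both directions together, this was 24.3% of the members against 15.2% of all genes. The excess in both directions together depended on the test and on single libraries. With limma on log2 FPKM, the split was 4 lower and 1 higher (plus 0.1) or 3 lower and 2 higher (plus 1). In both directions together, these 13.5% of the members lay below the 18.7% and 20.0% of all genes. The share of all genes that were lower was not counted with limma. These values therefore do not show whether the excess of lower members remained. Without wt replicate 1, 5 members were lower at an unadjusted p under 0.05 in edgeR (13.5%, against 5.51% of all genes). Without knockdown replicate 1 or 2, 2 members were (5.41%, against 5.49% and 4.75% of all genes in either direction). Estimates were below 0 for 22 members (47.9% of all genes) and above 0 for 15, with a median log2 fold change of -0.13 against 0.02 over all genes tested.

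The groups did not overlap for 12 members after TMM scaling, a scaling that sets the bulk of genes equal between libraries. They were lower in all 3 libraries labelled knockdown than in any wt library for 10 members (27.0%; 12.6% of all genes), namely Xylt1, Fam20b, Extl3, Ndst1, Ndst2, Chpf2, Chst7, Chst15, Dse and Papss2. They were higher in all 3 for Ndst3 and Glce (5.41%; 13.3% of all genes). This split depended on the scaling. On the deposited FPKM, which are scaled by the library total alone, the groups did not overlap for 4 lower members (Xylt1, Ndst1, Chpf2 and Papss2; 6.88% of all genes were lower without overlap on that scale) and for 4 higher members (Ndst3, Glce, Ugdh and Papss1; 18.6% of all genes were higher). Xylt1, Ndst1, Chpf2, Papss2, Ndst3 and Glce were separated on both scales.

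**Figure D2:**
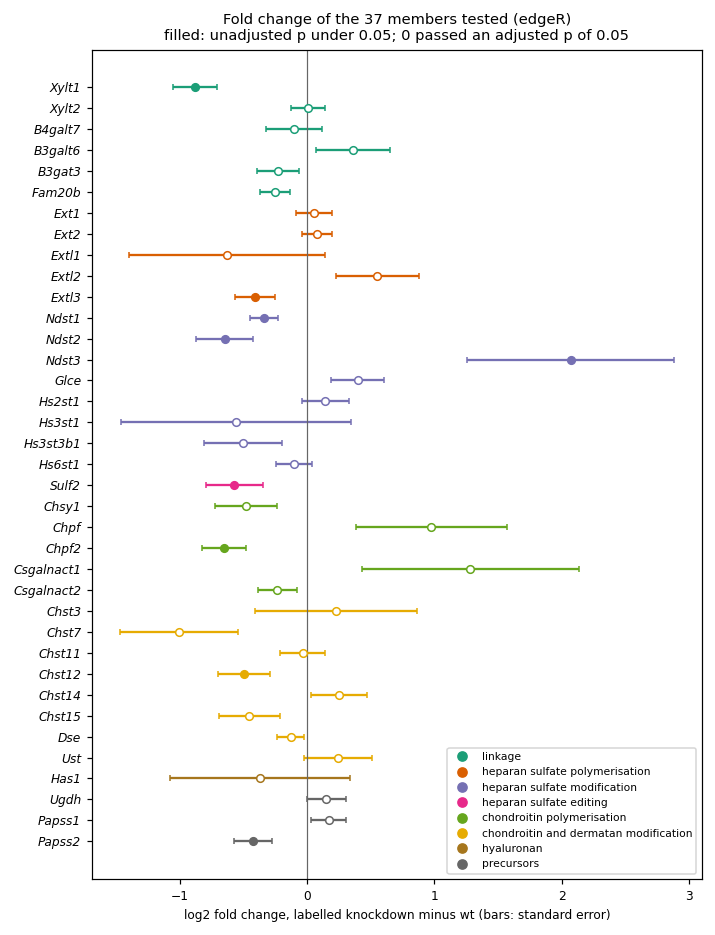
Log2 fold change of the 37 members tested, labelled knockdown minus wt, from edgeR, with the standard error as bars and colors for the roles. Filled symbols mark an unadjusted p under 0.05, of which 8 lie below 0 and 1 above; 0 members passed an adjusted p of 0.05.

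Linkage to the core protein. Xylosyltransferases put the first sugar on the core protein. Xylt1 (NCBI Gene 233781, GRCm38 chr7:117380979-117673580, plus strand) had the smallest p of the members. It measured 69.8, 72.7 and 56.5 CPM in wt and 35.9, 29.4 and 42.6 CPM in the libraries labelled knockdown, so every library labelled knockdown lay below every wt library. The means were 66.4 ± 8.65 and 35.9 ± 6.59 CPM (SD, n = 3 each), and the estimate was 1.85-fold lower. The log2 fold change was -0.89 with an SE of 0.17 (unadjusted p = 0.00111, adjusted p = 0.328 by edgeR with Benjamini-Hochberg adjustment; adjusted p = 0.0401 by DESeq2). An exact two-sided permutation test of the same values gave p = 0.1, the smallest that 3 against 3 libraries allow. Its paralog Xylt2 had equal group means, at 24.8, 21.1 and 24.5 CPM in wt and 24.1, 24.1 and 22.3 CPM in the libraries labelled knockdown (log2 fold change 0.00, SE 0.14).

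The kinase Fam20b, which phosphorylates the xylose and so lets the linker be completed, measured 53.1, 51.0 and 45.6 CPM in wt and 43.7, 41.1 and 40.6 CPM in the libraries labelled knockdown. The groups did not overlap, but the log2 fold change of -0.26 (SE 0.12) had an unadjusted p of 0.0622 in edgeR, and the groups overlapped in FPKM. The transferases that add the other linker sugars had estimates on both sides of 0. They were -0.11 (SE 0.22) for B4galt7, 0.36 (SE 0.29) for B3galt6 and -0.23 (SE 0.16) for B3gat3, the most abundant of the linkage genes, all with overlapping groups. B3gat3 measured 32.6, 27.1 and 25.2 CPM in wt and 22.6, 21.9 and 27.8 CPM in the libraries labelled knockdown.

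Heparan sulfate polymerisation. Ext1 and Ext2 form the polymerase that lengthens the chain. Ext1 measured 71.4, 59.8 and 56.4 CPM in wt and 71.0, 65.8 and 57.9 CPM in the libraries labelled knockdown, with a log2 fold change of 0.05 (SE 0.14). Ext2 had an estimate of 0.07 (SE 0.12), so neither subunit moved beyond its spread. Extl3 (NCBI Gene 54616, GRCm38 chr14:65052060-65149855, minus strand), which starts the heparan sulfate chain by adding the first N-acetylglucosamine to the linker, was lower in every library labelled knockdown. It measured 37.5, 27.7 and 29.0 CPM in wt and 23.8, 23.0 and 24.1 CPM in the libraries labelled knockdown. It had a log2 fold change of -0.41 with an SE of 0.16 (unadjusted p = 0.0308 by edgeR), and it was -0.27 without wt replicate 1, the highest library, so that 1 library moved the estimate by over 1.5 times. Extl2 had an estimate of 0.55 (SE 0.33), with its lowest values, 8.86 and 9.25 CPM, in wt replicates 1 and 3 and values of 14.3 to 20.6 CPM in the other 4. Extl1 was low, between 0.169 and 1.49 CPM, with its highest value in wt replicate 1.

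Heparan sulfate modification. The N-deacetylase/N-sulfotransferases replace acetyl groups by sulfate, the step on which the later sulfation depends. Ndst1 (NCBI Gene 15531) measured 84.7, 86.1 and 88.7 CPM in wt and 70.0, 62.2 and 73.2 CPM in the libraries labelled knockdown. The wt libraries lay close together at 86.5 ± 2.03 CPM, the others were at 68.4 ± 5.67 CPM (SD, n = 3 each), and the groups did not overlap. The log2 fold change was -0.34 with an SE of 0.11 (unadjusted p = 0.0169 by edgeR), and it was -0.36 without wt replicate 1. Ndst2 (NCBI Gene 17423, GRCm38 chr14:20723730-20734562, minus strand) measured 65.8, 38.6 and 45.9 CPM in wt and 31.8, 26.7 and 37.4 CPM in the libraries labelled knockdown. Here the log2 fold change of -0.65 (SE 0.22; unadjusted p = 0.0213 by edgeR) became -0.41 without wt replicate 1, which was the highest library.

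Ndst3 (NCBI Gene 83398, GRCm38 chr3:123526166-123690853, minus strand) went the other way at a very low level. Its raw counts were 1, 11 and 28 in wt and 69, 74 and 40 in the libraries labelled knockdown, which after scaling were 0.0281, 0.31 and 0.749 CPM against 1.76, 1.77 and 1.09 CPM. From these the log2 fold change was 2.07, SE 0.81 (unadjusted p = 0.0362 by edgeR), and it was 1.53 without wt replicate 1, which held a single count, and 3.15 without wt replicate 3, the highest wt library. Glce, the epimerase that turns glucuronic into iduronic acid and makes the chain flexible, was also higher without overlap, at 9.19, 12.5 and 13.2 CPM in wt and 14.3, 18.0 and 13.6 CPM in the libraries labelled knockdown. The gap between wt replicate 3 and knockdown replicate 3 was narrow, and the log2 fold change of 0.39 (SE 0.21) had an unadjusted p of 0.0928 in edgeR. It was 0.25 without wt replicate 1, the lowest library, and 0.26 without knockdown replicate 2, the highest.

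The O-sulfotransferases of heparan sulfate were not separated. Hs6st1 measured 129, 151 and 118 CPM in wt and 138, 112 and 121 CPM in the libraries labelled knockdown (log2 fold change -0.10, SE 0.14). Hs2st1, which sulfates the uronic acid, had an estimate of 0.14 (SE 0.19). The 3-O-sulfotransferases Hs3st1 and Hs3st3b1, whose rare mark creates binding sites for antithrombin and other proteins, had estimates of -0.56 (SE 0.90) and -0.51 (SE 0.31), the first from levels between 0.0846 and 0.962 CPM.

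Editing of heparan sulfate outside the cell. Sulf2 (NCBI Gene 72043, GRCm38 chr2:166073089-166155663, minus strand) measured 160, 139 and 115 CPM in wt and 90.8, 67.5 and 120 CPM in the libraries labelled knockdown. The means were 138 ± 22.5 and 92.6 ± 26.0 CPM (SD, n = 3 each), and the groups overlapped because knockdown replicate 3 lay above wt replicate 3. The log2 fold change was -0.57 with an SE of 0.22 (unadjusted p = 0.0345 by edgeR), and it was -0.46 without wt replicate 1. Sulf2 shares 2.62% of its exon bases with Ncoa3 on the other strand, and the library kit named in the methods does not mark strand. Ncoa3 itself was at 98.2 to 160 CPM, with an estimate of -0.38 in the same direction. Its part in the values of Sulf2 was not tested.

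Chondroitin polymerisation. Csgalnact1 and Csgalnact2 start chondroitin chains, and Chsy1, Chsy3, Chpf and Chpf2 lengthen them. Chpf2 (NCBI Gene 100910, GRCm38 chr5:24586741-24594556, plus strand) had the second smallest p of the members. It measured 45.5, 34.1 and 31.8 CPM in wt and 24.5, 21.1 and 25.2 CPM in the libraries labelled knockdown, without overlap. Its log2 fold change was -0.65 with an SE of 0.17 (unadjusted p = 0.00631 by edgeR), and it was -0.48 without wt replicate 1. Of its exon bases, 44.1% overlap Smarcd3 on the other strand or the microRNA gene Mir671, so its reads cannot be fully told apart from theirs. Smarcd3 itself was at 0.253 to 2.03 CPM, with an estimate of 0.78 in the opposite direction.

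The paralog Chpf (NCBI Gene 74241) had an estimate of 0.97 (SE 0.59), at 3.29, 22.01 and 12.7 CPM in wt and 26.9, 31.7 and 16.0 CPM in the libraries labelled knockdown. Csgalnact1 (NCBI Gene 234356) was spread still more widely, at 0.197, 5.02 and 3.23 CPM in wt and 9.23, 6.99 and 4.35 CPM in the libraries labelled knockdown (log2 fold change 1.28, SE 0.86). Both were lowest in wt replicate 1, and without it the estimates were 0.52 and 0.73; without wt replicate 2 they were 1.64 and 1.99. Csgalnact2, the more abundant starter enzyme, measured 76.8, 81.1 and 89.7 CPM in wt and 72.3, 56.7 and 81.2 CPM in the libraries labelled knockdown (log2 fold change -0.24, SE 0.16). Chsy1 measured 65.0, 33.7 and 40.8 CPM in wt and 29.3, 35.2 and 35.3 CPM in the others, and its estimate of -0.48 (SE 0.24) became -0.17 without wt replicate 1.

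Chondroitin and dermatan modification. Chst11 and Chst12 sulfate chondroitin at the 4-O position, Chst3 and Chst7 at the 6-O position, and Chst15 adds a further sulfate to 4-sulfated chains. Chst12 (NCBI Gene 59031, GRCm38 chr5:140505550-140525724, plus strand) measured 53.9, 40.1 and 37.1 CPM in wt and 28.1, 26.2 and 38.5 CPM in the libraries labelled knockdown, with knockdown replicate 3 inside the wt range. Its log2 fold change was -0.50 with an SE of 0.21 (unadjusted p = 0.0441 by edgeR), and it was -0.32 without wt replicate 1. Chst11 had an estimate of -0.03 (SE 0.18).

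Chst7 measured 1.80, 0.705 and 0.962 CPM in wt and 0.636, 0.477 and 0.602 CPM in the libraries labelled knockdown. The groups were separated, but its log2 fold change of -1.01 (SE 0.47; unadjusted p = 0.0634 by edgeR) became -0.55 without wt replicate 1. Chst15 measured 5.90, 5.44 and 8.21 CPM in wt and 5.14, 4.63 and 4.49 CPM in the others (log2 fold change -0.46, SE 0.24). The estimate was -0.27 without wt replicate 3, the highest library. The gene shares 17.9% of its exon bases with the antisense gene Gm10584. Dse, the epimerase that converts chondroitin into dermatan sulfate, measured 66.5, 70.5 and 64.2 CPM in wt and 61.9, 58.0 and 64.0 CPM in the libraries labelled knockdown (log2 fold change -0.13, SE 0.11), a separation of 64.2 against 64.0 CPM at its narrowest. Chst14, which sulfates dermatan at the 4-O position, and Ust, a uronyl 2-O-sulfotransferase, had estimates of 0.25 (SE 0.22) and 0.24 (SE 0.27), and Chst3 one of 0.22 (SE 0.64).

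Hyaluronan and precursors. Has1 measured 0.675, 4.88 and 1.39 CPM in wt and 1.68, 1.098 and 2.60 CPM in the libraries labelled knockdown (log2 fold change -0.37, SE 0.71). Its wt range thus enclosed all 3 libraries labelled knockdown. Ugdh measured 47.2, 68.3 and 62.1 CPM in wt and 65.9, 61.5 and 69.7 CPM in the others (log2 fold change 0.15, SE 0.16). The PAPS synthases Papss1 and Papss2 make the sulfate donor that every sulfotransferase above uses, and their estimates had opposite signs. Papss2 (NCBI Gene 23972, GRCm38 chr19:32595790-32667187, plus strand) measured 21.2, 21.7 and 20.1 CPM in wt and 15.5, 13.7 and 17.6 CPM in the libraries labelled knockdown, without overlap. The log2 fold change was -0.43 with an SE of 0.15 (unadjusted p = 0.0242 by edgeR), and it was also -0.43 without wt replicate 1. Papss1 had an estimate of 0.17 (SE 0.14).

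**Figure D3:**
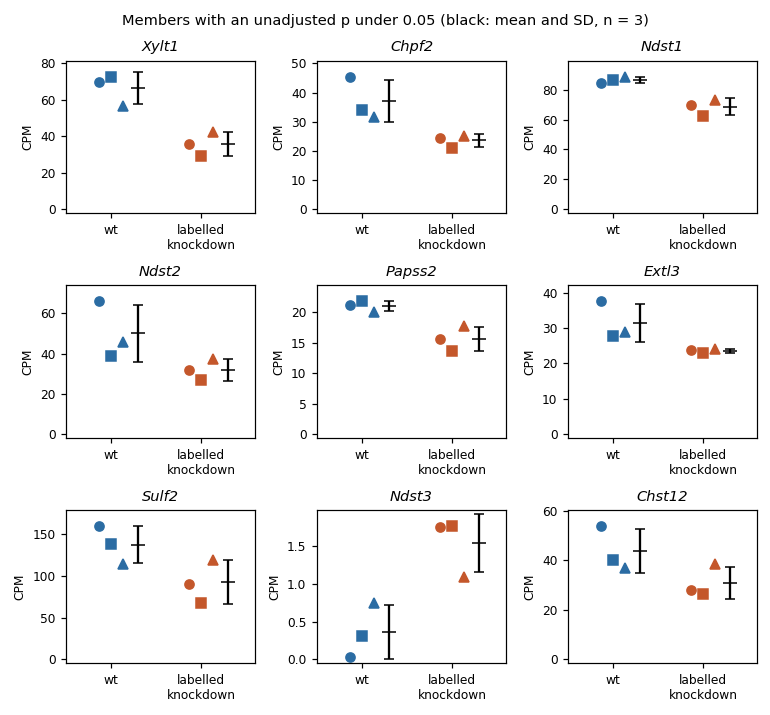
CPM after TMM scaling, from 0 on each vertical axis, in each library for the 9 members with an unadjusted p under 0.05, ordered by p from Xylt1; black marks give the mean and SD of 3 libraries. The groups are separated for Xylt1, Chpf2, Ndst1, Ndst2, Papss2, Extl3 and Ndst3, and overlap for Sulf2 and Chst12 through knockdown replicate 3.

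Ratios between paralogs within a library do not depend on the scaling of that library. The pairs were formed after the values had been seen, so the ratios are a description. The FPKM ratio of Xylt1 to Xylt2 was 3.14, 3.84 and 2.58 in wt and 1.66, 1.36 and 2.13 in the libraries labelled knockdown, or 3.19 ± 0.631 against 1.72 ± 0.389 (SD, n = 3 each). The ratio of Papss1 to Papss2 was 2.60, 2.64 and 2.27 in wt and 4.17, 4.13 and 3.18 in the others, or 2.50 ± 0.205 against 3.83 ± 0.561. Neither ratio overlapped between the groups. For Ext1 to Ext2, Ndst1 to Ndst2, Chpf to Chpf2, Csgalnact1 to Csgalnact2, Chst11 to Chst12 and Chst3 to Chst7 the groups overlapped.

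Promoter sequences were searched because the study centres on STAT3 and on a promoter element with the letters GCGTG at Ccrl2. RefSeq windows of 300 bases, from 250 before to 50 after each start (GRCm38.p6), were at hand for 33 of the 42 genes, as 42 windows, and Xylt1, Extl3 and Ndst1 were among the 9 genes without one. The STAT motif TTCNNNGAA was in 0 of the 42 windows and in 8.30% of all 32851 windows. GCGTG, searched on both strands, was in 21 of the 42 windows (50%) and in 32.4% of all windows. The E-box CACGTG was in 4 windows (9.52%, against 7.15% of all), those of Ext2, Chst14, Extl2 and Chsy1; neither motif contains the other. Counted by gene, 18 of the 33 genes with a window held GCGTG, among them Hs6st1, Ugdh, Papss1, Chpf and Xylt2, which were not among the lower members. Of the 5 lower members with a window, Sulf2, Chpf2, Chst12 and Ndst2 held GCGTG. A match for each is shown, in the direction of transcription and with the motif or its reverse complement (CACGC) in capitals, so that the flanks can be compared. Such a match describes the letters and does not show binding.
Sulf2: gcaagtgtgtGCGTGtgtgtttaga
Chpf2: tttagttgaaGCGTGctcagaaaag
Chst12: tgagatcagcCACGCccccactccg
Ndst2: gtgccacccgGCGTGgaggacgggg

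These lie at chr2:166155478-166155502 (minus strand), chr5:24586517-24586541 (plus), chr5:140505376-140505400 (plus) and chr14:20734539-20734563 (minus). The Chpf2 and Chst12 matches are upstream of the gene in both annotations. The Sulf2 match is upstream of the RefSeq start of its window but inside the gene as GENCODE draws it. The stretch shown for Sulf2 begins 161 bases past the GENCODE start. The Ndst2 motif lies 9 bases past the RefSeq start and inside the gene in both annotations. Only the flank shown for Ndst2 reaches across the start. The 5-base motif was shared by these 4 windows, while the flanks differed, from a run of alternating g and t at Sulf2 to c- and g-rich sequence at Ndst2. Sulf2 held a second match, in the other orientation and nearer to the RefSeq start.

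Other genes of the pathway were counted as lists. Of 15 genes of donor synthesis and transport, all tested, Slc26a2, a sulfate transporter, was lower (log2 fold change -0.39; unadjusted p = 0.0377 by edgeR), and Bpnt2, a Golgi phosphatase that clears the by-product of sulfation, was higher (0.35; unadjusted p = 0.0382 by edgeR). This was 6.67% of the 15 in each direction, against 8.31% of all genes lower and 6.9% higher. The median of these 15 was -0.02. Of 10 further sulfotransferases and epimerases, 4 were tested, and 0 of the 4 had an unadjusted p under 0.05; 5 are not analysed here. Of 20 core proteins, 17 were tested, with a median of -0.01. Serglycin (Srgn) was by far the most abundant at 1118 FPKM, with an estimate of -0.12.

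Among the core proteins, 2 had an unadjusted p under 0.05 by edgeR, both lower (11.8% of those tested, against 8.31% of all genes). Sdc3, a syndecan that carries heparan sulfate, measured 352, 340.2 and 299.5 CPM in wt and 188, 148 and 259 CPM in the libraries labelled knockdown (log2 fold change -0.74; unadjusted p = 0.00817 by edgeR), without overlap. Nrp1, a co-receptor that can carry a chain, had a log2 fold change of -0.61 (unadjusted p = 0.00837 by edgeR). At the other end, Dcn, Cspg4, Sdc2, Hspg2 and Col18a1, core proteins of matrix-forming cells, had estimates between 1.05 and 1.49 and were lowest in wt replicate 1, without which they were at 0.52 to 0.93. Their groups overlapped in CPM, and those of Sdc2 did not overlap in FPKM. Other core proteins of the matrix went the other way. Bgn had an estimate of -0.94 and Vcan one of -0.37, and without wt replicate 1 they were at -1.39 and -0.59. Of the 17 core proteins tested, 8 had estimates above 0 and 9 below.

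Most of the enzymes that break the chains down, in the lysosome and at the surface, had estimates below 0. Of 18 such genes, 17 were tested, 16 had estimates below 0, and the median was -0.43. Unadjusted p was under 0.05 for 9 of the 17 (52.9%; 8.31% of all genes), all lower and with an adjusted p of 0.328 or above in edgeR with Benjamini-Hochberg adjustment. They included Hpse, the heparanase (-0.61), Idua (-0.43), Sgsh (-0.61), Hgsnat (-0.59), Gusb (-0.46), Galns (-0.48), Hexa (-0.53) and Hyal1 (-0.72), which are lysosomal or surface hydrolases or, for Hgsnat, the acetyltransferase of heparan sulfate degradation. Without wt replicate 1, 4 of the 17 had an unadjusted p under 0.05 and were lower (Idua, Sgsh, Hgsnat and Hyal1; 23.5%, against 5.51% of all genes), and the estimate of Hpse was -0.38 and that of Gusb -0.30. On the deposited FPKM, 6 of the 17 were lower without overlap, where 6.88% of all genes were. After TMM scaling it was 10 of the 17 (58.8%), where 12.6% of all genes were. Of these 17 genes, 13 were highest in wt replicate 1, as was the summed macrophage list, and its part in this result was not tested. The difference between the breakdown and synthesis lists was not tested either.

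**Figure D4:**
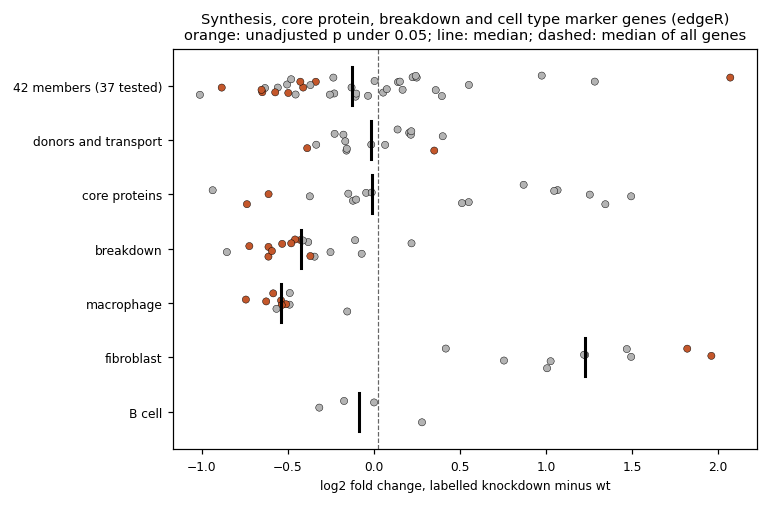
Log2 fold change of every tested gene (horizontal axis, labelled knockdown minus wt, edgeR) in the synthesis list, 3 other pathway lists and 3 marker lists; each dot is a gene, orange marks an unadjusted p under 0.05, thick lines are list medians and the dashed line is the median of all genes. The medians lie at -0.13 for synthesis, -0.43 for breakdown, -0.54 for macrophage markers and 1.22 for fibroblast markers.

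The order of the 6 libraries in each tested member was compared with that in each marker list. The 10 fibroblast markers summed to 39.9, 613 and 378 CPM in wt and to 891, 778 and 460.0 CPM in the libraries labelled knockdown. All 10 had estimates above 0 (median 1.22). Of them, 2 had an unadjusted p under 0.05 by edgeR (20.0%, against 6.9% of all genes higher). These were Col1a1 at 0.561 to 5.52 CPM and Col1a2 at 0.241 to 2.59 CPM. Col3a1 was the largest part of the sum in every library, at 19.0, 426 and 245 CPM in wt and 604, 474 and 308 CPM in the others. Col3a1, Col6a1, Dcn and Lum stood in the order of this sum. Col1a1, Col1a2, Col5a1, Pdgfra and Pdgfrb did not, and Thy1 stood in that of the T cell list. The 5 epithelial or carcinoma markers summed to 35.2, 137 and 79.9 CPM in wt and to 191, 183 and 129 CPM in the others, with Krt19 at 0 in all but 1 library. Most of this sum was Krt8 (estimate 1.25). Cdh1 had an estimate of -0.41 and was highest in wt replicate 1, where it made up 24.3 of the 35.2 CPM. Both sums put the libraries in the order wt 1, wt 3, knockdown 3, wt 2, knockdown 2, knockdown 1. Csgalnact1 was the 1 of the 37 tested members that stood in exactly this order. Of all tested genes, 2.47% outside the fibroblast list and 2.49% outside the carcinoma list did so. The count of members was thus near the share over all genes. Chpf stood in the same order but for knockdown replicates 1 and 2. The part of fibroblast or carcinoma RNA in the values of both genes was not tested.

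Sulf2 and Chst12, 2 of the 37 tested members, stood in the order of the summed macrophage list. That order ran from knockdown replicate 2, the lowest, to wt replicate 1, and 2.09% of all tested genes outside the list stood in it. In that list knockdown replicate 3 (14970 CPM) lay just above wt replicate 3 (14923 CPM), as it did for both genes. Chst3 stood in the order of the B cell list, which summed to 31.6, 3.97 and 28.8 CPM in wt and 9.87, 45.2 and 8.67 CPM in the others, and 0.209% of all tested genes outside the list did so. Neither the B cell sum nor Chst3 was separated by group. The remaining 33 tested members stood in the order of none of the 11 marker lists or its reverse, Chpf included as 1 exchange short of it. Whether the marker content accounts for any member's difference was not tested.

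**Figure D5:**
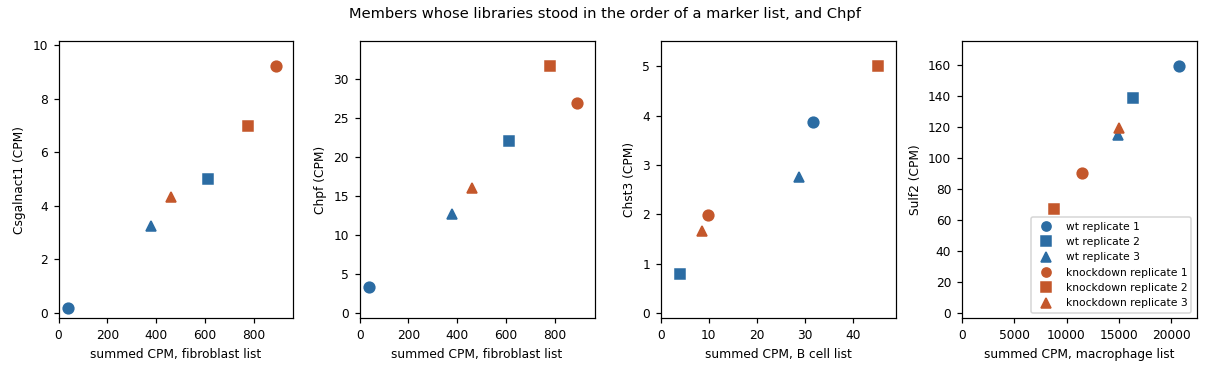
CPM of Csgalnact1, Chpf, Chst3 and Sulf2 (vertical axes) against the summed CPM of the fibroblast, fibroblast, B cell and macrophage lists (horizontal axes), 1 point for each of the 6 libraries, blue for wt and orange for labelled knockdown. Csgalnact1 goes from 0.197 CPM in wt replicate 1, where the fibroblast list sums to 39.9 CPM, to 9.23 CPM in knockdown replicate 1, where it sums to 891 CPM.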

How the data were processed

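RNA was sequenced in 6 libraries, 3 wt and 3 labelled knockdown. The deposited files hold raw counts of reads on each gene and, as the authors computed them, FPKM; the latter equal the former scaled by a length for each gene and by library size. The submitters' processing notes name the build mm10; the aligner and counting tool are not given in the sources used here. The methods of the study name a SMARTer cDNA kit and paired-end sequencing, whereas the labels describe a small RNA protocol. All sample columns were mapped by title.

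Counts were filtered with filterByExpr (13884 of 22377 genes), TMM-scaled and tested with edgeR 4.0.16 in R 4.3.3 (glmQLFTest, group only, all 6 libraries), adjusted by Benjamini-Hochberg across every tested gene, and a threshold of 0.05. Positive fold changes are higher in the libraries labelled knockdown. SE was obtained as |log2 fold change| / sqrt(F). Within a gene, TMM-scaled CPM are given, and between genes FPKM. Exact permutation tests were two-sided. Scripts were tested on simulated data. Alternatives used DESeq2 1.42.0, limma 3.58.1 on log2 FPKM plus 1 or 0.1, other scalings and filters, a replicate block, and each library left out. Coordinates are from GENCODE M21, exon overlap included.

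The members and lists were chosen with earlier results of these data known. Values in every library are given for members with an unadjusted p under 0.05, without overlap, or highest in FPKM for their role. Other pathway genes are named where their unadjusted p is under 0.05, except 1 that is not reported here, and any beyond this were chosen after their values were seen. Replicate numbers did not pair the libraries (correlations of -0.241, 0.0605 and -0.337 between same-numbered libraries).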

Additional observations from a re-analysis of the deposited data

How the results depend on the processing

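Of 16 other settings or choices of libraries, 14 called 0 genes and 0 members at an adjusted p of 0.05. DESeq2 called 36 genes and 1 member (Xylt1), and DESeq2 without wt replicate 1 and knockdown replicate 3 called 1266 genes (10.1% of those tested) and 5 members, Xylt1, Ndst2, Sulf2, Chpf2 and Chst12, all lower. That choice of 4 libraries comes from an earlier reading of the libraries shown in the study's heatmap. Members with an unadjusted p under 0.05, 9 in edgeR, numbered 5 with limma at either pseudocount, and 2 to 10 when 1 library was left out (5.41% to 27.0% of the members, against 4.75% to 18.8% of all genes). With limma the share of members in both directions together, 13.5%, was below that of all genes, 18.7% and 20.0%. The lowest number, 2 (Xylt1 and Chpf2), came without knockdown replicate 1 or 2, where the share of members was close to that of all genes, and the number was 6 without wt replicate 1 (16.2%, against 12.2%). With the replicate number as a block, 6 members had an unadjusted p under 0.05 and 0 were called, and the numbers did not pair the libraries. Xylt1 and Chpf2 had an unadjusted p under 0.05 in edgeR and in all 16 of these. The median of the members was 0.0185 and 0.0173 with limma (plus 0.1 and plus 1), where the median of all genes moved to 0.16 (plus 0.1) and 0.09 (plus 1), and -0.19 to -0.12 when 1 library was left out. On the deposited FPKM, a comparison chosen after seeing the data, 4 lower and 4 higher members did not overlap, against 10 and 2.

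Signs changed for the members that follow. With limma (plus 0.1 and plus 1), B4galt7 was at 0.0173 and 0.0199, Chst11 at 0.14 and 0.12, Dse at 0.0185 and 0.0173, and Hs6st1 at 0.0474 and 0.0462; Has1 was at 0.11 with plus 0.1 and at 0.0811 with the block. Without wt replicate 1 and knockdown replicate 3 (DESeq2, then edgeR), B4galt7 was at 0.035 and 0.0725, Extl1 at 0.76 and 0.78, Hs3st1 at 0.0638 and 0.0835, and Ugdh at -0.0752 and -0.0376, and Hs2st1 was at -0.0333 with DESeq2. Xylt2 was at -0.0191 with DESeq2, -0.0117 with RLE factors and -0.0106 without a filter. With 1 library left out the ranges were -0.0708 to 0.0408 for Xylt2, -0.35 to 0.00145 for B4galt7, -0.0326 to 0.16 for Ext1, -1.10 to 0.52 for Extl1, -0.0104 to 0.32 for Hs2st1, -0.45 to 0.70 for Chst3, -0.17 to 0.16 for Chst11 and -0.81 to 0.79 for Has1. The cause was not tested. With 3 libraries a group and counts near the limit, differences in the 5 untested members were not detectable at this depth.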

Other observations

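Other marker lists gave the following values, none of which was set against the members by a test. The T cell list summed to 12.9, 21.9 and 65.3 CPM in wt and to 59.6, 142 and 53.1 CPM in the libraries labelled knockdown. Of its 5 tested genes, 3 had an unadjusted p under 0.05 by edgeR, all higher (60.0%, against 6.9% of all genes). The neutrophil list had a median log2 fold change of -0.65, with 3 of 6 genes lower at an unadjusted p under 0.05, and the dendritic cell list one of -0.03. The endothelial and mast cell lists had medians of 0.18 and -0.46, the NK cell list 0.99, and Ptprc, which encodes CD45, an estimate of -0.09.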
